A study of Mus musculus with 17 samples.

Results

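Transcripts of 9 genes of the unfolded protein response were examined in mouse alveolar epithelial type 2 (AT2) cells, the surfactant-secreting cells of the lung. The 9 were Xbp1, Ern1, Atf6, Atf6b, Creb3, Creb3l1, Creb3l2, Mbtps1 and Mbtps2. They were taken by symbol as the stress sensors of the endoplasmic reticulum (ER), the bZIP factors that these sensors release, and the proteases that cut those factors. All 9 were found among the 43430 gene rows of both count tables, and all 9 passed the filter on low counts in both.

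The libraries came from flow-sorted AT2 cells of C57BL/6J mice aged 2 months. In the first experiment, 4 libraries followed vehicle and 4 followed ISRIB, a small molecule that relieves the block on translation initiation imposed by the integrated stress response, and cells were taken 24 h after dosing. These 8 libraries were poly(A)-selected. In the second experiment, 4 libraries were of naive mice and 5 were made 14 days after bleomycin, a drug that injures the alveolar epithelium and leads to fibrosis. These 9 were total-RNA libraries, and all 9, naive ones included, carry the treatment label Vehicle and the word Saline in their titles, as do the titles of the vehicle group. No genetic alteration is labelled in any group, and no drug dose is given. The labels do not say that the replicates were separate animals, so every p-value below measures the spread between these samples, which may be technical.

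IRE1, encoded by Ern1, senses unfolded protein in the ER lumen and cuts an intron out of Xbp1 messenger RNA in the cytoplasm, which lets the transcript encode an active factor. ATF6, ATF6B and the CREB3 family are held in the ER membrane until they move to the Golgi, where the site-1 protease (Mbtps1) and the site-2 protease (Mbtps2) release their N-terminal bZIP parts. The released factors raise ER chaperones, degradation factors and the secretory machinery, which AT2 cells use heavily to make surfactant proteins.

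The stretch of Xbp1 that IRE1 cuts is shown because it limits what the counts can say. It lies in exon 4 of a 2129-base GENCODE transcript of Xbp1 at chr11:5524262-5524327 (GRCm38, plus strand). The capitals mark 26 bases (chr11:5524282-5524307) whose removal gives the spliced sequence. They were found from the 1 pair of CNGCAGC loop motifs in the transcript that are spaced by 26 bases. The cut was placed after CNGCAG in each motif, which is an assumption. Both motifs hold GCAG before that point, so cuts at an earlier base of GCAG remove a shifted 26 bases and leave the same product. The capitals therefore do not locate the exact cut sites.
Xbp1 exon 4: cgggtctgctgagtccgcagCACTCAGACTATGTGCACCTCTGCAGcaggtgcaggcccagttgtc
A count per gene adds the spliced and unspliced forms together, and the values for Xbp1 below give the sum of both.

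Sequence shared by known XBP1 and ATF6 targets was looked for next, as the ER stress response element (ERSE), the letters CCAAT and CCACG spaced by 9 bases of any kind. Both strands were searched in RefSeq promoter windows (GRCm38.p6), which run from 250 bases before to 50 after the start site. Of the 34 genes on a list of XBP1 and ATF6 targets, 27 had a window and 8 of these held the element, against 37 of 27025 genes (0.137%) in the whole table. The 37 include these 8, and the list was made of known targets of factors that bind this element. Both shares therefore describe the letters and are no test. The 8 are given by their windows, with the matches in capitals and 5 bases on each side. The position is that of the first base of the match, counted from the start site as 0, and each sequence is written along the strand of its gene.
Hspa5, chr2:34771840-34772139, position -65: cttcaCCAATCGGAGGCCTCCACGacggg
Hsp90b1, chr10:86705395-86705694, position -212: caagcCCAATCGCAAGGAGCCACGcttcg
Hsp90b1, chr10:86705395-86705694, position -107: gagtgCGTGGTGAGGCACGATTGGtgagt
Calr, chr8:84846882-84847181, position -162: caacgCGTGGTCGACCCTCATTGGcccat
Pdia6, chr12:17266339-17266638, position -98: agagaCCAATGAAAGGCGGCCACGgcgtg
Dnajc3, chr14:118937682-118937981, position -105: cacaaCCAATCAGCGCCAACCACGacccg
Creld2, chr15:88819396-88819695, position -126: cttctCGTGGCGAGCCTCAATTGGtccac
Derl3, chr10:75893148-75893447, position -156: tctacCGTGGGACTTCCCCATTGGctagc
Syvn1, chr19:6046326-6046625, position -44: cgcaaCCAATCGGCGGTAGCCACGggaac
Of the 9 genes of the set, 7 had a window and 0 of these held an ERSE there. Outside those windows, the first 300 bases of the Xbp1 transcript above held 1 match, beginning at base 248 of the transcript, and 7 of 21746 coding transcripts had one in their first 300 bases. That search was added after the Xbp1 sequence had been seen.
Xbp1 transcript, plus strand: accggCCAATCGCGGACGGCCACGaccct
The 2 members that rose after bleomycin, Atf6b and Creb3, are shown with their whole windows. ACGTG, the short core that CREB-type bZIP factors and ATF6 share, is in capitals where it occurs on either strand. In Atf6b the match on each strand overlaps the other.
Atf6b promoter, chr17:34646896-34647195, strand +: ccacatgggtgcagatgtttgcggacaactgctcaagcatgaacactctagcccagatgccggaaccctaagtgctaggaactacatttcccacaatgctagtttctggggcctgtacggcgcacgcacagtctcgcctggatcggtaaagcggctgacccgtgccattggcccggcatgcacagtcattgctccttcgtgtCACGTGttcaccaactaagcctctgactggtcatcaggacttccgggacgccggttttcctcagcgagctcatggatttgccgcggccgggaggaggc
Creb3 promoter, chr4:43562408-43562707, strand +: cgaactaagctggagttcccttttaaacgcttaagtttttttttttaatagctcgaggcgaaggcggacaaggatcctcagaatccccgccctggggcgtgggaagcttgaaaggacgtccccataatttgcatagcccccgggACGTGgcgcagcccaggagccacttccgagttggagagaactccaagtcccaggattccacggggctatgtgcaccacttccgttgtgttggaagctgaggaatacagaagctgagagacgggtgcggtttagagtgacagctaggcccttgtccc
ACGTG was present in 6447 of 32851 windows (19.6%), so its presence in both is a description of the letters only. TGACGTGG and TGACGTCA, longer elements bound by this factor class, were in none of the 7 windows, against 0.676% and 1.79% of all windows. ERSE-II, the letters ATTGG and CCACG spaced by 1 base of any kind, was searched too and was in none of the 7. On the target list it was in Dnajb11 (position 7) and Herpud1 (position -52), against 12 of 27025 genes in all, which include both. As for the ERSE, this describes the letters and is no test.

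Depth and purity bear on these values. The poly(A) table had 10493574 to 15727139 counts per library. The total-RNA table was shallower, at 3295257 to 6333166, so low members such as Mbtps2 rested on 25 to 98 counts per library in the second table. Bleomycin libraries had a count in 13940 to 17112 genes and naive libraries in 17108 to 19763, at totals of 3299824 to 6333166 and 3295257 to 4654479, and the part of this in the bleomycin comparison was not tested. Markers of AT2 cells were abundant throughout, with Sftpc at a mean of 109000 CPM (CPM: counts over the library's TMM-scaled total) in vehicle and 38500 CPM in naive libraries. After bleomycin the mean of Sftpc was 28500 CPM (log2 fold change -0.44, SE 0.18, adjusted p = 0.087 by edgeR), and 1 of 9 AT2 markers was called lower and 2 higher. The AT2 markers summed to 79200 to 86500 CPM in naive libraries, to 49000 and 57600 CPM in bleomycin 1 and 2 and to 72800 to 86900 CPM in bleomycin 3 to 5. The 8 lymphocyte and plasma cell markers, which matter because plasma cells express much Xbp1, were below the filter in both tables, and their summed level was 0 to 1.92 CPM in every library. After bleomycin, 6 of 8 AT1 markers were called higher, their summed level running from 1090 to 1320 CPM in naive and from 1750 to 2300 CPM in bleomycin libraries. Fibroblast markers summed to 2.68 to 9.39 CPM in naive and 17.7 to 116 CPM in bleomycin libraries, and 3 of the 3 tested were called higher. These 3 were the collagen genes Col1a1, Col1a2 and Col3a1, and the other 5 of the list were below the filter. Bleomycin 1 and bleomycin 2 had the highest Col1a1 (26.7 and 52.3 CPM) and the highest Foxj1, a ciliated cell gene (21.4 and 38.6 CPM). Macrophage and monocyte markers summed to 6.62 to 10.7 CPM in naive and 6.14 to 10.6 CPM in bleomycin libraries, endothelial markers to 22.4 to 31.2 and 25.1 to 81.9 CPM. Foxj1 was above every naive library (2.09 to 4.36 CPM) in bleomycin 3 to 5 too, at 7.12 to 7.13 CPM, and was called higher (log2 fold change 2.28, SE 0.52, adjusted p = 0.0044 by edgeR), as were the endothelial genes Cdh5 and Vwf. The airway markers as a list summed to 374 to 802 CPM in naive and 403 to 764 CPM in bleomycin libraries. Foxj1 was the 1 called of 4 tested there. The 6 AT1 genes, the fibroblast collagens, Foxj1, Cdh5 and Vwf thus moved with the bleomycin group. Their part in the changes below was not tested. The 3 members called after bleomycin were also called without bleomycin 1 and bleomycin 2. That fit kept bleomycin 5, which had the highest endothelial sum (81.9 CPM). It left out bleomycin 1, which had the lowest of its group (25.1 CPM). Replicate pairs had a chi-square per degree of freedom of at least 3.5 over their gene counts, above the 1 that counting error alone gives, so each was counted as a separate library.

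Across the 9 genes, Xbp1 had the highest level per kilobase of merged exon in all 4 groups. In vehicle libraries it stood at 53.2 ± 2.71 CPM per kb (SD, n = 4). Creb3l1 followed at 27.3 ± 4.19 CPM per kb, and its lowest library (22.7) was above the highest of every gene below it. Atf6b (16.8 ± 1.02), Creb3 (15.3 ± 0.168) and Mbtps1 (14.4 ± 0.71 CPM per kb) came next, each overlapping or touching its neighbour. Ern1, Creb3l2 and Atf6 lay together between 9.26 and 11.5 CPM per kb, and their libraries overlapped. Mbtps2, the site-2 protease, was lowest at 1.63 ± 0.0743 CPM per kb, while the site-1 protease Mbtps1 had 14.4 CPM per kb in the same vehicle libraries. Levels were not compared across the kits.

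In naive libraries the order again began with Xbp1 (28.1 ± 2.67 CPM per kb, n = 4) and Creb3l1 (18.9 ± 1.66 CPM per kb). Below them Ern1, Creb3l2, Mbtps1, Creb3 and Atf6 ranged from 8.2 to 12.3 CPM per kb with overlapping libraries. Atf6b was the eighth at 6.89 ± 1.1 CPM per kb and Mbtps2 the last at 1.01 ± 0.193. In bleomycin libraries the places changed. Creb3 was the second at 14.5 ± 2.55 CPM per kb (n = 5), Atf6b the third at 11.4 ± 1.5 and Creb3l1 the seventh at 8.58 ± 1.85. Creb3 (11.7 to 17.2) and Atf6b (9.98 to 13.6 CPM per kb) overlapped each other in that group, and both overlapped Ern1 (7.75 to 13.3). Creb3l1 (5.71 to 10.1) overlapped Ern1 and Atf6 (7.48 to 9.56 CPM per kb). The places between Xbp1 and Mbtps2 were thus not all resolved by these libraries.

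The bleomycin comparison asks how AT2 cells differ during fibrotic injury. Creb3l1 fell and Atf6b and Creb3 rose, while Xbp1, Ern1, Atf6, Creb3l2 and both proteases did not pass the threshold. Thus 3 of 9 members were called (adjusted p under 0.05 by edgeR's quasi-likelihood test, Benjamini-Hochberg over the 11223 genes tested), beside 20.5% of all genes tested. Of the 3, 2 were higher, against 11.2% of all genes called higher, and 1 was lower, against 9.31% called lower. The median log2 fold change of the 9 was -0.14, and that of all genes tested was 0.00259. The count alone does not set the 9 apart from other genes.

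Creb3l1 encodes a membrane-held bZIP factor also known as OASIS, known for its role in collagen secretion by bone-forming cells. The gene (ENSMUSG00000027230) lies at chr2:91982328-92024502 on the minus strand of GRCm38. It stood at 50.3, 54.3, 43.8 and 48.9 CPM in naive 1 to 4 and at 25.7, 26.2, 14.9, 20.1 and 24.9 CPM in bleomycin 1 to 5. Every bleomycin library was below every naive library, with bleomycin 3 the lowest. The log2 fold change was -1.15 (SE 0.17, 95% interval -1.51 to -0.79, adjusted p = 0.000124 by edgeR), which left 0.452 of the naive level. Groups that do not overlap were found for 19.7% of all genes tested. In RNA from a sorted population, fewer cells of a type and less RNA per cell cannot be told apart, for Creb3l1 as for every member here. Without bleomycin 1 and bleomycin 2 the call on Creb3l1 was kept.

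Creb3l2, the closest relative of Creb3l1 in the set, was not called, and the difference between the 2 genes was not tested. Its values were 74.1, 79.5, 82.9 and 74.8 CPM in naive libraries and 79.9, 54.7, 49.1, 91 and 57 CPM in bleomycin libraries. The bleomycin values split into bleomycin 1 and 4, inside or above the naive range, and bleomycin 2, 3 and 5, below it. Bleomycin 1 and 4 were also the shallowest of that group, with 3889141 and 3299824 counts, and the part of depth in this split was not tested. The log2 fold change was -0.24 (SE 0.16, interval -0.58 to 0.10, adjusted p = 0.314 by edgeR).

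Creb3, also called LZIP or Luman, is a Golgi and ER stress factor of the same family. The gene (ENSMUSG00000028466) lies at chr4:43562332-43567060 on the plus strand. It stood at 21.1, 19.4, 28.5 and 23.8 CPM in naive and 28.6, 36.1, 39.2, 40.8 and 27.7 CPM in bleomycin libraries. Bleomycin 5 lay inside the naive range and the other 4 above it. The log2 fold change was 0.57 (SE 0.18, interval 0.20 to 0.94, adjusted p = 0.0281 by edgeR). This call rests on few libraries: the adjusted p was 0.0868 without naive 1, 0.103 without naive 2, 0.0689 without naive 4 and 0.0637 without bleomycin 3. Of the exon bases of Creb3, 20.8% overlap Gba2 or Tln1 on the opposite strand, and no source used here states how strand was treated in counting, so reads of these genes may be mixed.

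Atf6b encodes the paralogue of ATF6, a weaker activator that can restrain ATF6. The gene (ENSMUSG00000015461) lies at chr17:34647146-34655074 on the plus strand. It was at 17.4, 23.5, 18 and 17 CPM in naive and 27.5, 28.2, 33.8, 37.4 and 30.7 CPM in bleomycin libraries. All 5 bleomycin libraries were above all 4 naive ones. The log2 fold change was 0.72 (SE 0.17, interval 0.36 to 1.08, adjusted p = 0.00626 by edgeR), a rise to 1.65 times the naive level.

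Atf6 itself had 83.2, 88.9, 83.8 and 89.1 CPM in naive and 69, 88.2, 71.7, 77.7 and 83.8 CPM in bleomycin libraries. The groups overlapped, and the log2 fold change was -0.14 (SE 0.11, interval -0.38 to 0.10, adjusted p = 0.416 by edgeR). The interval leaves room for a fall to 0.768 of the naive level.

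**Figure D1:**
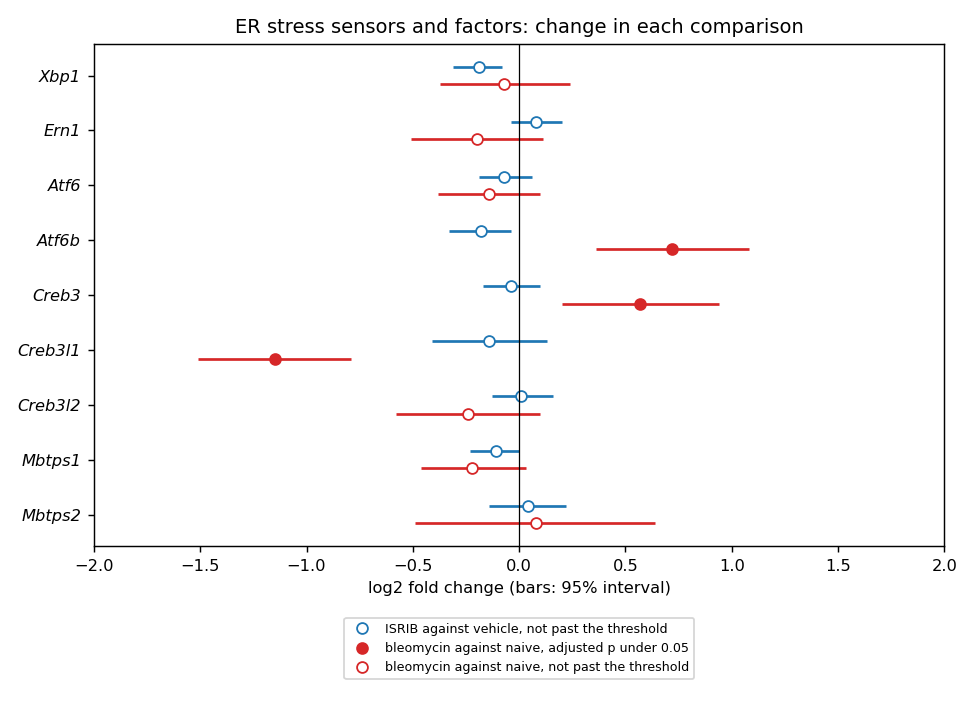
Log2 fold change of each of the 9 genes on the x axis, with 95% intervals as bars, for ISRIB against vehicle (blue, n = 4 and 4) and bleomycin against naive (red, n = 5 and 4). Filled points passed the adjusted threshold: Creb3l1 at -1.15, Creb3 at 0.57 and Atf6b at 0.72, all after bleomycin.

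In the IRE1 arm, Xbp1 measured 81.2, 102, 89.2 and 92.4 CPM in naive and 59, 106, 83.2, 96.8 and 90.1 CPM in bleomycin libraries. Bleomycin 1 was the lowest and bleomycin 2 the highest of all 9 libraries. The log2 fold change of Xbp1 was -0.07 (SE 0.15, interval -0.37 to 0.24, adjusted p = 0.785 by edgeR), and it was 0.04 without bleomycin 1. Ern1, the sensor itself, had 88.6, 83.3, 94 and 100 CPM in naive and 87.8, 63.3, 68.3, 109 and 71.7 CPM in bleomycin libraries. Its high bleomycin libraries were again 1 and 4, and the log2 fold change was -0.20 (SE 0.15, interval -0.51 to 0.11, adjusted p = 0.36 by edgeR).

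Mbtps1 cuts the lumenal side of ATF6, of the CREB3 family and of the sterol factors SREBP. It had 94.9, 111, 129 and 100 CPM in naive and 93.6, 98.5, 96, 84.8 and 95 CPM in bleomycin libraries, and its log2 fold change was -0.22 (SE 0.12, interval -0.46 to 0.03, adjusted p = 0.20 by edgeR). Naive 3 was the highest, and the groups overlapped at their edges. Mbtps2, which makes the second cut inside the membrane, ranged from 8.39 to 12.2 CPM in naive and from 7.22 to 15.2 CPM in bleomycin libraries, and its log2 fold change was 0.08 (SE 0.27, interval -0.49 to 0.64, adjusted p = 0.873 by edgeR). Its sign turned without naive 1 or without bleomycin 3, and part of its exons is shared with Yy2 on the same strand.

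**Figure D2:**
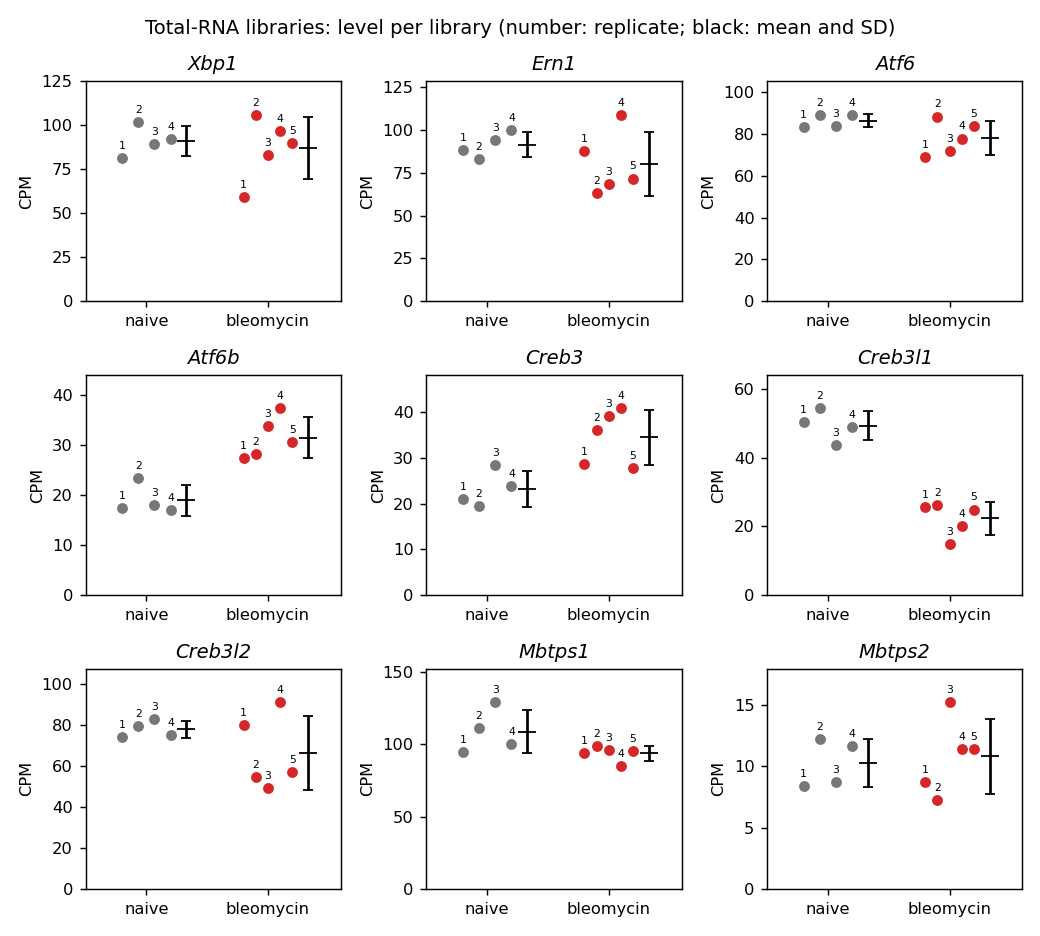
CPM (y axis, from 0) of each of the 9 genes in every total-RNA library, naive in grey and bleomycin in red, numbered by replicate, with the group mean and SD in black. Creb3l1 is at 14.9 to 26.2 CPM in all bleomycin libraries and at 43.8 to 54.3 CPM in naive ones, and Ern1 and Creb3l2 spread widely within the bleomycin group.

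Ratios of raw counts within 1 library do not depend on scaling between libraries. They were chosen after the values had been seen and are given without a test. Atf6b reads per Atf6 read ran from 0.191 to 0.264 in naive and from 0.319 to 0.482 in bleomycin libraries. Creb3l1 reads per Creb3l2 read ran from 0.529 to 0.683 in naive and from 0.221 to 0.479 in bleomycin libraries. Against Creb3, the same ratio for Creb3l1 ran from 1.54 to 2.79 in naive and from 0.379 to 0.898 in bleomycin libraries. Creb3l1 had more reads than Creb3 in each naive library and fewer in each bleomycin library. Ern1 per Xbp1 read overlapped, at 0.816 to 1.09 in naive and 0.598 to 1.49 in bleomycin libraries.

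**Figure D3:**
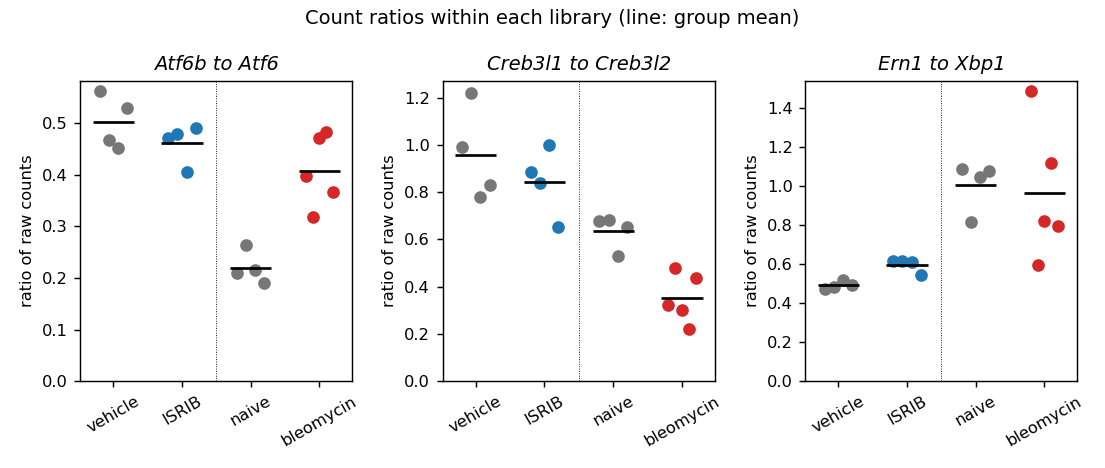
Ratio of raw read counts within each library (y axis, from 0) for 3 pairs of genes, by group, with lines at group means and a dotted line between the kits. Atf6b to Atf6 and Creb3l1 to Creb3l2 do not overlap between naive and bleomycin, and Ern1 to Xbp1 does not overlap between vehicle (0.472 to 0.518) and ISRIB (0.545 to 0.619).

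Among the other genes of the pathway, many targets of XBP1 and ATF6 rose after bleomycin. Of 34 listed, 31 were tested, 13 were called higher (11.2% of all genes were) and 1 lower, and the median log2 fold change was 0.28. The largest were Sdf2l1, a cofactor of ER chaperones (7.33 ± 2.82 CPM naive, 16.4 ± 3.01 bleomycin, log2 fold change 1.13, SE 0.28), Calr, the lectin chaperone calreticulin (1.12, SE 0.16), and Pdia4, a disulfide isomerase (1.05, SE 0.14). The other 10 called higher included Hspa5, the chaperone BiP, which ran from 396 to 499 CPM in naive and from 720 to 802 CPM in bleomycin libraries (log2 fold change 0.72, SE 0.11, adjusted p = 0.000199 by edgeR). Herpud1, an ER degradation factor that PERK signalling and ATF6 both induce, fell (109 ± 20.7 to 65.9 ± 14 CPM, log2 fold change -0.72, SE 0.16, adjusted p = 0.00334 by edgeR). Of the 8 targets with an ERSE shown above, 7 were tested and 4 were called higher, namely Hspa5, Hsp90b1, Calr and Creld2. These stand beside the 13 of 31 on the whole list, and targets with and without an ERSE were not compared by a test. Without bleomycin 1 and bleomycin 2, 14 targets were called higher. The Xbp1, Ern1 and Atf6 transcripts did not pass the threshold in these same libraries.

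In the other lists, counts of calls are to be read beside the 20.5% of all genes called, and those of the CREB3 targets and of the IRE1 and ATF6 partners were not above it. Of 18 tested genes of the SREBP arm, which the same 2 proteases activate, 7 were called lower and 1 higher. Among them were Insig1, which retains SREBP in the ER (109 ± 14.5 to 57.2 ± 9.5 CPM, log2 fold change -0.93, SE 0.14), and the sterol synthesis gene Lss (-0.59, SE 0.15), which lost its call without naive 2 (adjusted p = 0.0554 by edgeR) or naive 4 (0.0558). Gnptab, a substrate of the site-1 protease that makes the lysosomal targeting signal, rose (0.72, SE 0.11). The median of the SREBP list was -0.24, and 15 of the 18 log2 fold changes were negative. Its summed level did not fall, at 16500 to 25500 CPM in naive and 20500 to 30400 CPM in bleomycin libraries, with overlap. Other calls among the 7 lower genes were also lost in some alternatives, in up to 7 of 16 for a single gene. Of 7 tested substrates of IRE1-dependent decay, Col6a1 (1.06, SE 0.11) and Sparc (1.10, SE 0.11) were called higher. Both encode matrix proteins that fibroblasts also make, and the fibroblast collagens given above were higher in the same group. The part of fibroblasts in these values was not tested.

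Of 11 tested genes of the PERK branch, the third sensor pathway, 4 were called higher: Psat1 (1.47, SE 0.37), Sesn2 (0.85, SE 0.18), Atf3 (0.69, SE 0.24) and 1 more, and the list's median was -0.04. The sensor gene of that branch, Eif2ak3, changed by -0.09 on the log2 scale (SE 0.14, adjusted p = 0.716 by edgeR). Of 22 partner genes of IRE1 and ATF6, Bak1 (1.69, SE 0.26) and Bax (0.90, SE 0.24), cell death genes whose proteins bind IRE1, were higher and the kinase gene Map3k5 (-0.63, SE 0.12) lower. Bax lost its call without naive 2 (adjusted p = 0.0566 by edgeR) and without bleomycin 1 and bleomycin 2 (0.0794). Of 15 tested targets of the CREB3 family, the coat protein genes Copz1 (0.50, SE 0.14) and Copb2 (0.33, SE 0.11) were higher and Herpud1 lower, with a list median of 0.19. Several of these calls were fragile. Atf3 lost its call in 11 of 16 alternatives (adjusted p = 0.056 by DESeq2, 0.0978 by limma-voom, 0.0744 with the replicate block by edgeR, and up to 0.175 by edgeR, without bleomycin 1 and bleomycin 2). Copb2 lost it in 10 of 16 (up to 0.149 by edgeR, without naive 1). Psat1 lost it by limma-voom (adjusted p = 0.0819) and without bleomycin 1 and bleomycin 2 (0.0528 by edgeR). Copz1 lost it without naive 3 (adjusted p = 0.0553 by edgeR) or naive 4 (0.066). Creb3l4, of the CREB3 family, was below the filter in total RNA (1.08 to 3.87 CPM). Ern2 and Creb3l3, the remaining relatives of Ern1 and of the CREB3 family, were at or below 1.55 and 0.298 CPM in each total-RNA library.

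**Figure D4:**
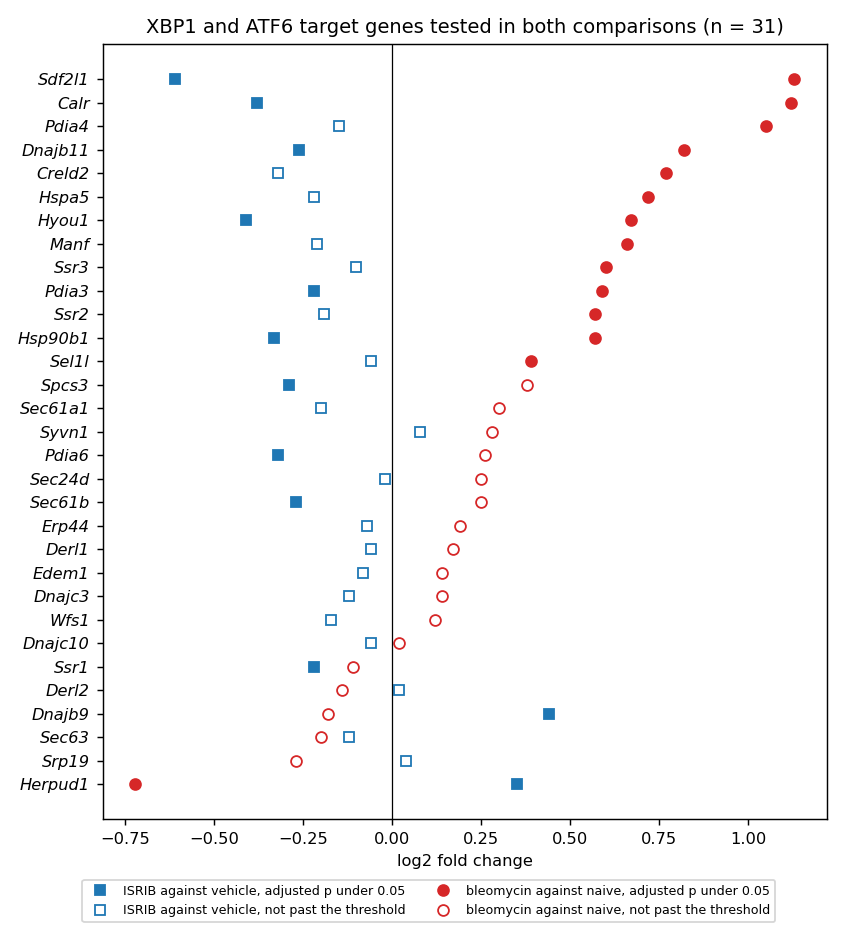
Log2 fold change (x axis) of the 31 XBP1 and ATF6 target genes tested in both comparisons, ISRIB as blue squares and bleomycin as red circles, filled where the adjusted threshold was passed. Calr is at 1.12 after bleomycin and -0.38 after ISRIB, and Herpud1 at -0.72 and 0.35.

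The ISRIB comparison asks what the drug changes in AT2 cells of uninjured mice. The changes of the 9 genes were small, and Xbp1 was the nearest to a call, at 12.6% below vehicle. By edgeR 0 of 9 members were called, beside 2.20% of the 12054 genes tested. At an unadjusted p under 0.05 there were 3 of 9 (Xbp1, Atf6b and Mbtps1), beside 16% of all genes. DESeq2 called 1 member, Xbp1, and limma-voom 0. The median log2 fold change of the 9 was -0.07, and that of all genes tested was -0.000137.

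Xbp1 stood at 179, 169, 181 and 163 CPM in vehicle 1 to 4 and at 146, 144, 154 and 162 CPM in ISRIB 1 to 4. Each ISRIB library was below each vehicle library, with ISRIB 4 just under vehicle 4. The log2 fold change was -0.19 (SE 0.06, interval -0.31 to -0.08, adjusted p = 0.0832 by edgeR). The adjusted p was 0.035 by DESeq2 and 0.0446 by edgeR without the filter on low counts, so whether Xbp1 passes depends on the tool and the filter. Groups did not overlap for 8.65% of all genes tested.

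Ern1 was at 84.7, 81.8, 93.7 and 80.4 CPM in vehicle and 90.3, 88.4, 94 and 88 CPM in ISRIB libraries (log2 fold change 0.08, SE 0.06, interval -0.04 to 0.20, adjusted p = 0.545 by edgeR). Its groups overlapped, since vehicle 3 was as high as the ISRIB libraries. The ratio of Ern1 to Xbp1 reads was 0.472 to 0.518 in vehicle and 0.545 to 0.619 in ISRIB libraries, without overlap and, as above, without a test.

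Atf6b had 48.1, 42.7, 45.4 and 48.8 CPM in vehicle and 39.3, 43.1, 37.8 and 42.8 CPM in ISRIB libraries. ISRIB 2 and 4 were just above vehicle 2, so the groups overlapped, and the log2 fold change was -0.18 (SE 0.07, interval -0.33 to -0.04, adjusted p = 0.198 by edgeR). Atf6 had 85.5, 91.4, 100 and 92.3 CPM in vehicle and 83.4, 89.9, 93.2 and 87.2 CPM in ISRIB libraries (log2 fold change -0.07, SE 0.06, interval -0.19 to 0.06). Mbtps1 had 154, 141, 159 and 154 CPM in vehicle and 145, 137, 144 and 136 CPM in ISRIB libraries (log2 fold change -0.11, SE 0.05, adjusted p = 0.295 by edgeR). In Mbtps1 only vehicle 2 lay among the ISRIB values.

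In the remaining members the groups overlapped, and each interval held both falls and rises. Creb3 was the steadiest, at 35.9 to 36.8 CPM in vehicle and 33.5 to 36.7 CPM in ISRIB libraries (log2 fold change -0.04, interval -0.17 to 0.10). Of its 4 ISRIB libraries, 3 were below every vehicle library. Creb3l2 ranged from 68.1 to 83.5 CPM in vehicle and from 73.1 to 82.5 CPM in ISRIB libraries (0.01, interval -0.13 to 0.16), and Mbtps2 from 15.5 to 17.2 and from 16.2 to 18.2 CPM (0.04, interval -0.14 to 0.22). Creb3l1 varied most between replicates, at 76.9, 83, 65 and 59.1 CPM in vehicle and 65.4, 62.1, 82.3 and 47.6 CPM in ISRIB libraries (-0.14, SE 0.13, interval -0.41 to 0.13). ISRIB 4, the lowest in Creb3l1, was also the lowest of the 8 in the club cell gene Scgb1a1 (1960 CPM, against 2740 to 3640 CPM in the others). It was the lowest in the summed fibroblast markers too (11.8 CPM, against 16.8 to 25.3 CPM in the others). In the macrophage and endothelial sums (7.98 and 55.4 CPM) it was not the lowest. The part of club cells or fibroblasts in the Creb3l1 values was not tested.

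**Figure D5:**
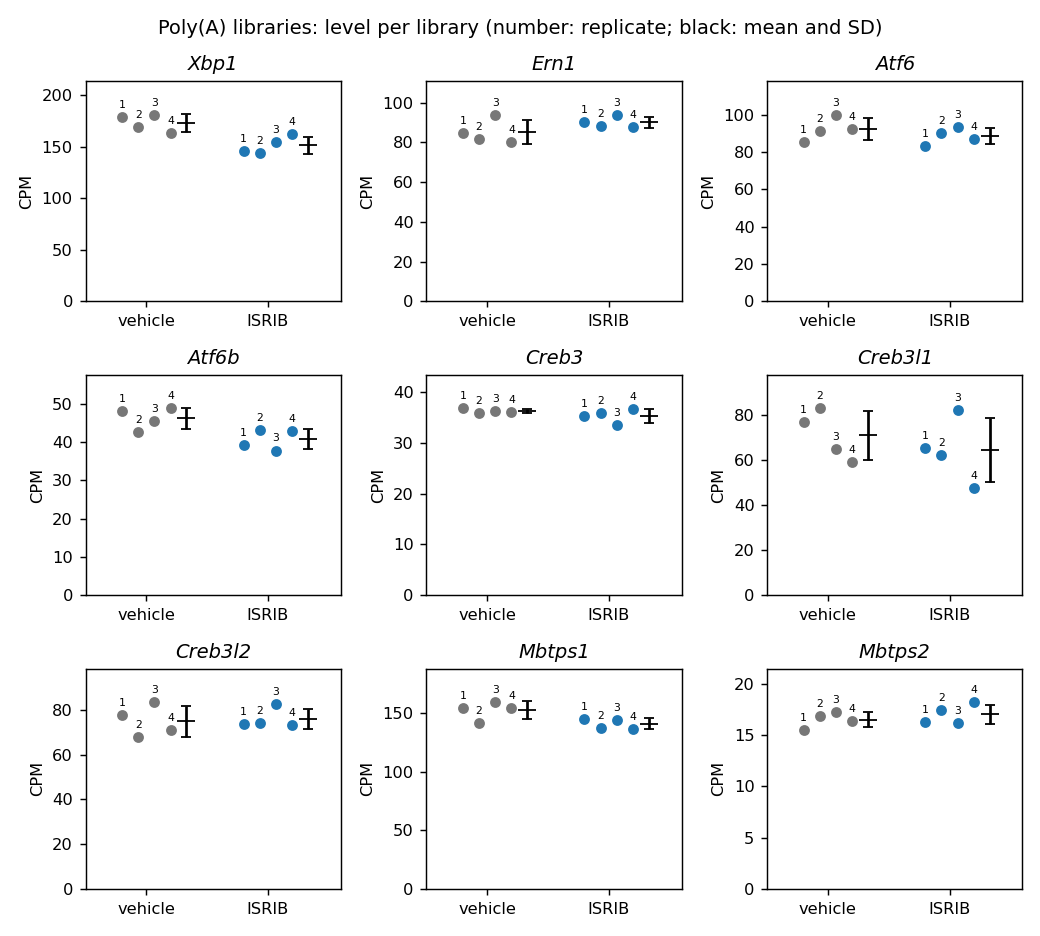
CPM (y axis, from 0) of each of the 9 genes in every poly(A) library, vehicle in grey and ISRIB in blue, numbered by replicate, with the group mean and SD in black. Xbp1 is the member whose groups do not overlap (163 to 181 CPM in vehicle, 144 to 162 CPM after ISRIB), and Creb3l1 has the widest spread within groups.

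Target genes of XBP1 and ATF6 were lower after ISRIB in part. Of 33 tested, 10 were called lower and 2 higher, beside 1.10% of all genes in each direction, and the list's median log2 fold change was -0.17. The largest fold falls were in Sdf2l1 (21.9 ± 2.95 to 14.4 ± 3.63 CPM, log2 fold change -0.61, SE 0.15), Hyou1, a large ER chaperone (218 ± 24.8 to 164 ± 11.5 CPM, -0.41, SE 0.07), and Calr (610 ± 47 to 470 ± 19.5 CPM, -0.38, SE 0.06), and 7 more were lower. Hyou1 and Calr kept their calls in all 14 alternatives, while Sdf2l1 lost its call without vehicle 1, 2 or 4 or without ISRIB 1 or 3 (adjusted p = 0.0582 to 0.128 by edgeR). Calr ran from 559 to 661 CPM in vehicle and from 450 to 489 CPM in ISRIB libraries, without overlap. The 2 called higher were Dnajb9, a BiP cochaperone that IRE1 signalling induces (65.6 ± 12.8 to 89 ± 9.39 CPM, 0.44, SE 0.11), and Herpud1 (242 ± 33.1 to 309 ± 11.4 CPM, 0.35, SE 0.08). The Dnajb9 call was lost without any 1 of 6 libraries (vehicle 1, 2 or 3, ISRIB 1, 3 or 4; adjusted p up to 0.133 by edgeR), and the Herpud1 call without vehicle 1, vehicle 2 or ISRIB 3 (up to 0.082). Hspa5 did not pass (668 to 797 CPM in vehicle, 587 to 750 CPM in ISRIB, log2 fold change -0.22, adjusted p = 0.141 by edgeR). Of the 8 targets with an ERSE, Hsp90b1, Calr and Pdia6 were called lower, beside the 10 of 33 on the whole list, and no test compared them. The count of targets called lower was 4 without vehicle 1, vehicle 2 or vehicle 4 and 5 without ISRIB 1, ISRIB 2 or ISRIB 3.

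In each of the other lists at most 1 gene was called after ISRIB. Scd1, the stearoyl-CoA desaturase gene that SREBP drives, was the 1 called of 18 in the SREBP arm (27300 ± 2430 to 22000 ± 1210 CPM, log2 fold change -0.32, SE 0.07), but Scd1 did not pass when vehicle 2 (adjusted p = 0.0713 by edgeR) or vehicle 3 (0.0537) was left out. The SREBP list summed to 34000 to 40100 CPM in vehicle and 28800 to 32300 CPM in ISRIB libraries, without overlap. Its median log2 fold change was -0.02, with 7 positive and 11 negative. Psat1 of serine synthesis was the 1 called of 12 in the PERK branch (-0.82, SE 0.15), Pdia6 the 1 of 22 partners (-0.32, SE 0.05) and Herpud1 the 1 of 16 CREB3 targets. In the PERK branch 9 log2 fold changes were positive and 3 negative, with a median of 0.14. Groups did not overlap for 4 of these 12 genes, beside 8.65% of all genes tested. Of 8 tested substrates of IRE1-dependent decay 0 were called by edgeR, with a median of -0.07.

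Genes whose library-by-library pattern was closest to a member were found by the root mean square difference of log2 CPM relative to the control mean. For Creb3l1 over the 9 total-RNA libraries they were Lifr, a cytokine receptor gene (difference 0.106 on the log2 scale), Flcn (0.183) and Inpp4a (0.224), among 9665 candidates with a median difference of 0.935. The log2 fold changes of Lifr (-1.11), Flcn (-1) and Inpp4a (-1.16) lay near that of Creb3l1, as the measure selects. For Xbp1 the nearest were Cope (0.106), Mon1b (0.11) and Eif3e (0.123) in the total-RNA libraries, and Smc1a (0.0428), Ano6 (0.043) and Med14 (0.0508) over the 8 poly(A) libraries.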

How the data were processed

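RNA from flow-sorted AT2 cells was extracted with PicoPure and sequenced on a Illumina NextSeq as 8 poly(A) libraries (NEBNext Ultra, 3 ng of RNA) and 9 total-RNA libraries (SMARTer Stranded Total RNA v2 Pico, 0.35 ng), per the labels' protocols. The deposited files hold untransformed read counts for each gene, a unit read from the values. The submitters' processing notes name bcl2fastq 2.19.1, FastQC, Trimmomatic 0.36, STAR 2.6.0, HTSeq 0.11.2 and mm10; no source used here names the annotation or the strand setting.

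Gene IDs were matched to symbols, positions and exon lengths in GENCODE M21 (GRCm38). Each table was analysed apart, since each kit was its own experiment. Genes entered the test through filterByExpr (at least 10 counts, total of at least 15), with TMM scaling, and were tested with the quasi-likelihood test of edgeR 4.0.16 in R 4.3.3, two-sided, on group alone. Adjustment was by Benjamini-Hochberg across every gene tested, with calls at adjusted p under 0.05. The SE of an unshrunken log2 fold change is its size over the root of F. Ranges of total counts, given above, limit what genes of few counts can show. The procedure was checked on simulated counts whose planted changes were larger than those of the members after ISRIB. That check does not cover changes as small as those. DESeq2 1.42.0, limma-voom (limma 3.58.1), other scalings, no filter, a replicate block and left-out libraries were tried as alternatives.

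The members and lists were chosen with earlier results of these data known. All 9 members are named. Of each list, at most the 3 largest called changes in each direction are named. Genes named for an ERSE or ERSE-II match, the sensor Eif2ak3 and Hspa5 come besides, the last 2 chosen after their values were seen. A result that this rule would name is not reported here. The nearest genes by pattern needed a mean of at least 5 CPM, with a pseudocount of 0.5 CPM. Some lists share genes, such as Herpud1 and Pdia6. Spring1 matched no ID and was not analysed here.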

Additional observations from a re-analysis of the deposited data

Results flagged for a closer look

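Among the 36 sets of library values looked at (9 genes in 4 groups), 2 had a library far from the others of its group, and chance alone marks about 1 in 20 such sets. Creb3l2 stood at 82.5 CPM in ISRIB 3, and the next highest ISRIB library had 74.2 CPM. Atf6b stood at 23.5 CPM in naive 2, and the next highest naive library had 18 CPM. Without naive 2 the Atf6b call after bleomycin was kept.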

How the results depend on the processing

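After bleomycin, Creb3l1 (log2 fold change -1.31 to -1.01 over 16 alternatives) and Atf6b (0.66 to 0.85) kept direction and call under each alternative; the count of members called was 2 to 3 with a library left out, and Creb3 is the member that dropped out. The number of genes called ran from 1554 to 2584 with a library left out, and the count of targets called higher from 11 to 15. Signs turned for Xbp1 (0.04 without bleomycin 1; -0.15 to 0.04 over left-out libraries), Mbtps2 (-0.0079 without naive 1, -0.08 without bleomycin 3; -0.08 to 0.2), Cope (0.0087 without bleomycin 1; -0.14 to 0.0087) and Eif3e (0.02 with total-count scaling, 0.05 without bleomycin 1, 0.04 without bleomycin 1 and 2; -0.1 to 0.05), none of them called; the cause was not tested. After ISRIB, 1 member (Xbp1) was called by DESeq2 and 1 without the filter on low counts, and 0 in each fit that left a library out. Genes called numbered 265, 648 without the filter, and 86 to 269 with a library left out (86 without vehicle 1, 102 without vehicle 2, 159 without ISRIB 4). Targets called lower were 4 to 8 with a library left out, where fewer libraries also mean less power. Creb3l2, not called, turned to -0.03, -0.02 and -0.03 without vehicle 2, vehicle 4 and ISRIB 3 (range -0.03 to 0.07). Total-count scaling moved the share of ISRIB calls that were higher from 50.2% to 60.4%, and that after bleomycin from 54.6% to 64.5%. Same-numbered libraries did not deviate together (correlations -0.11 to 0.08), so the numbers are not shown to pair them; with the replicate block 277 genes and 0 members were called after ISRIB with 7 targets lower, and 2099 genes and 3 members after bleomycin with 13 targets higher. The leave-out of bleomycin 1 and 2 and the target counts under the alternatives were added after the data had been seen.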
